A study of Mus musculus with 4 samples.

Results

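Tex101 and 4 genes whose products work with it on the germ cell surface, Ly6k, Dpep3, Lypd4 and Ace, were followed in mouse pachytene spermatocytes. The 5 genes were taken by symbol from the 55364 genes in the tables, and all 5 were among the 16571 genes abundant enough to be tested. Tex101 was selected on its TPM and counts in these same libraries, which were about 6 times as high in mutant as in wild-type cells. Its own difference is therefore given as a description, without a test, and the partners were picked for their roles.

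The KK libraries (2) came from mice with both Ddx4 alleles knocked in, and the WT libraries (2) from wild-type mice. Ddx4 encodes the germ cell RNA helicase also called MVH or Vasa. The labels give neither the inserted sequence, nor the strain, nor the age, and they do not say whether libraries of a genotype came from separate mice, so p-values measure only the spread between these samples. Both genotypes were handled alike. Testes were treated with collagenase to remove Leydig cells, and germ cells were released with trypsin and separated by centrifugal elutriation. The purity of the fraction was judged by DAPI staining, and total RNA went into libraries that keep no record of strand.

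TEX101 is a glycoprotein held on the membrane of male germ cells by a glycosylphosphatidylinositol (GPI) anchor, a lipid that replaces a transmembrane segment. It carries the LU (Ly6/uPAR) fold, as do LY6K, which forms a complex with it, and LYPD4. DPEP3 is a GPI-anchored member of the membrane dipeptidase family that binds TEX101 on testicular germ cells. The testis form of angiotensin-converting enzyme, made from Ace, has been reported to release GPI-anchored proteins, and TEX101 is shed from maturing sperm. Mouse males without Tex101, Ly6k, Lypd4 or testis ACE make sperm that do not pass into the oviduct, and sperm without TEX101 lack mature ADAM3, a surface protein needed for that passage.

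Sequences upstream of 3 genes at the Tex101 locus and of the testis start of Ace are shown because they hold the CCAAT boxes that recur at the locus and the motifs of the testis start of Ace. Each is the 250 bases before a transcription start in RefSeq (GRCm38.p6), 5′ to 3′ on the gene's strand, with capitals marking CCAAT (or ATTGG, the same box on the other strand) and TGAGGTCA (or TGACCTCA). RefSeq entries were found for 4 of the 5 genes. Ly6k is named only. Lypd10 and Lypd11 are the RefSeq names of BC049730 and Gm4763.
Tex101, chr7:24672051-24672300, minus strand: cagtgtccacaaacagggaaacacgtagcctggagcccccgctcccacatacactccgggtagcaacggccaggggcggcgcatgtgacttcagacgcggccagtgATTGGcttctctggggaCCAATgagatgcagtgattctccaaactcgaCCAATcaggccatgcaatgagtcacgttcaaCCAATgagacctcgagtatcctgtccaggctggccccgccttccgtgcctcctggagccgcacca
Lypd10 (BC049730), chr7:24709009-24709258, plus strand: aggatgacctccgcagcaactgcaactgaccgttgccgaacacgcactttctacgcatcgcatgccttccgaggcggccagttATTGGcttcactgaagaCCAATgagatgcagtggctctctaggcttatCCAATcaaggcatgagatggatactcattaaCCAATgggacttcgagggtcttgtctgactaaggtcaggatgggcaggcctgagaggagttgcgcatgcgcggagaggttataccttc
Lypd11 (Gm4763), chr7:24726909-24727158, minus strand: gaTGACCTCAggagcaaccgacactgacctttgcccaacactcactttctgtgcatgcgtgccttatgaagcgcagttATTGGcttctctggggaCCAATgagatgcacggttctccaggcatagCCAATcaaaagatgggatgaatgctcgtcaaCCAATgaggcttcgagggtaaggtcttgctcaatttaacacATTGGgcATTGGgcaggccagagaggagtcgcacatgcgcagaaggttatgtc
Ace, testis start, chr11:105974939-105975188, plus strand: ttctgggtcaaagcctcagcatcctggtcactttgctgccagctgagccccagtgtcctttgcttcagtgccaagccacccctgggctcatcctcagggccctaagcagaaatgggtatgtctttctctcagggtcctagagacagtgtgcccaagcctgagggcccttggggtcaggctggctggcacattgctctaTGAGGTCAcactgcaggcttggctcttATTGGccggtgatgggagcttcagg

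Total expected counts were 19438570 and 17970207 in the KK libraries and 18156099 and 19246124 in the WT libraries. Ddx4 itself, on chromosome 13, stood at 54.4 and 52.5 TPM (a transcript level corrected for length and depth) in KK and at 265 and 273 TPM in WT. Its log2 fold change of -2.34 ± 0.04 (SE) had an adjusted p of 6.81e-27 in edgeR's quasi-likelihood test. Many genes differed between the genotypes: 43.7% of the 16571 genes tested passed an adjusted p of 0.05, 22.0% higher and 21.7% lower in KK. Values did not overlap between the genotypes for 70.8% of genes.

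Tex101 (chr7:24668007-24676675, minus strand) was by far the most changed of the 5 genes. Its RNA stood at 1852.35 and 1867.62 TPM in the KK libraries, against 311.50 and 310.74 TPM in the WT libraries. The KK libraries lay far above both WT libraries, and the libraries of each genotype were nearly equal. The means were 1860.0 ± 10.8 TPM in KK and 311 ± 0.537 TPM in WT (SD, n = 2 each), a log2 fold change of 2.58 ± 0.04 (SE), or 5.98-fold. Behind these levels stood 21722 and 19934 expected counts in KK and 3190 and 3385 in WT.

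**Figure D1:**
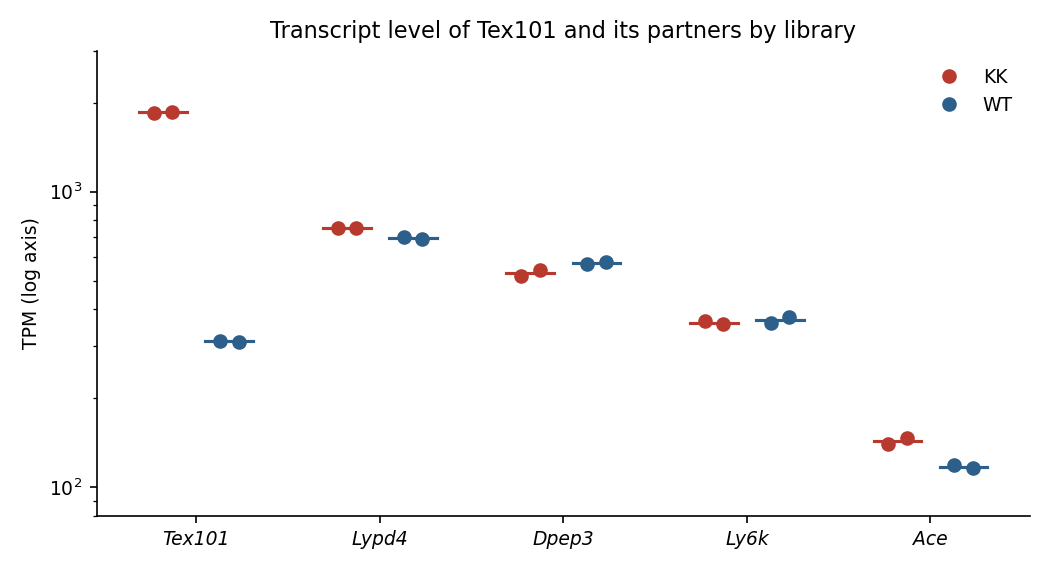
Level in TPM (log axis) of Tex101, Lypd4, Dpep3, Ly6k and Ace in each library, with KK to the left of WT, a point for each library and a line at the mean of 2 libraries. The Tex101 points lie at 1852.35 and 1867.62 TPM in KK and at 311.50 and 310.74 TPM in WT, while the points of each partner lie close together.

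The difference placed Tex101 among the most abundant transcripts of the KK libraries. Ranked by TPM over all genes, it was 50th and 47th in the KK libraries and 605th and 609th in the WT libraries. It made up 0.185% and 0.187% of all TPM in KK, against 0.0312% and 0.0311% in WT. Of 2446 genes with a mean of at least 100 CPM (counts scaled to library size with TMM factors), 6 (0.245%) were at least 2-fold higher in KK, and 1 (0.0409%), Tex101, was at least 4-fold higher. That count depends on the cuts. Insl3 in the same set was 3.77-fold higher, and under a mean of 100 CPM Lcn2 was 7.13-fold and Agt 3.97-fold higher. The median gene of that abundance was slightly lower in KK, with a log2 fold change of -0.09.

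**Figure D2:**
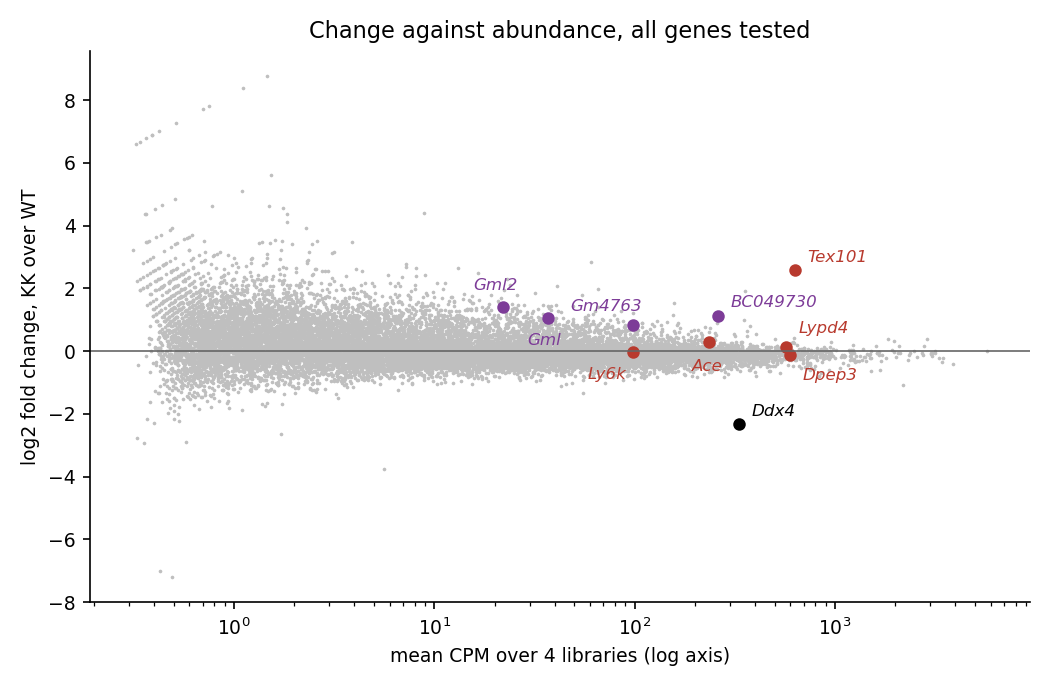
Log2 fold change of KK over WT against mean CPM over the 4 libraries (log axis) for the 16571 genes tested, in grey. The 5 genes are in red and Ddx4 is in black. Of the neighbours that rose, only BC049730, Gm4763, Gml and Gml2 are marked, in purple. Tex101 lies at 2.58, the highest among genes with a mean of at least 100 CPM, BC049730 lies at 1.12, and the partners lie near 0.

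Markers of other cells and stages moved alongside, where 22.0% of all genes tested rose and 21.7% fell. Of 15 tested Leydig cell markers, 12 rose and none fell, and their summed level was 859 to 871 CPM in KK and 333 to 340 CPM in WT, led by the Leydig hormone Insl3, at 557 and 571 CPM in KK and 145 and 154 CPM in WT. No listed Leydig marker was at 0 in all libraries. Of 17 tested spermatogonial markers 9 rose and 1 fell, with sums of 138 to 153 CPM in KK and 133 to 135 CPM in WT. The 1 that fell, Id4, weighed most on these sums, at 67.8 and 72.4 CPM in KK and 92.7 and 94.0 CPM in WT. Of the 9, 4 had fewer than 10 counts in at least 1 WT library, and with limma on log2(TPM + 1) 3 rose. With that setting 7 Leydig markers rose. Pachytene genes summed to 18276 to 18433 CPM in KK and 20086 to 20118 CPM in WT, and the part of any of these in the difference of Tex101 was not tested. In such bulk samples, fewer cells of a type and less RNA per cell cannot be told apart.

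The isoforms of Tex101 did not share this difference in equal measure. The main isoform, which starts at position 24672050 of chromosome 7 and has 6 exons and 250 codons, held 99.58% and 99.69% of the Tex101 transcripts in KK and 98.10% and 98.49% in WT. It had 1844.55 and 1861.74 TPM in KK, against 305.59 and 306.05 TPM in WT, and its mean CPM was 6.07 times as high in KK. Both other isoforms start 4625 bases upstream, at position 24676675. Summed, they had 107.69 and 73.40 expected counts in KK and 71.61 and 59.77 in WT, so the upstream start gave few transcripts in either genotype. Scaled for depth, they stood at 5.35 and 3.99 CPM in KK and 4.06 and 3.20 CPM in WT, values that overlap between the genotypes, and the ratio of the means was 1.29. Of the pair, both of 194 codons, the isoform of 1161 bases was at 49.42 and 43.01 counts in KK and 26.18 and 31.07 in WT, without overlap, and its ratio of mean CPM was 1.52, but only 3 of its bases lie in no other isoform. The difference in Tex101 RNA was thus counted on the transcript of the downstream start, the one that lies next to the promoter printed above. Isoform counts are the authors' estimates and were not tested.

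**Figure D3:**
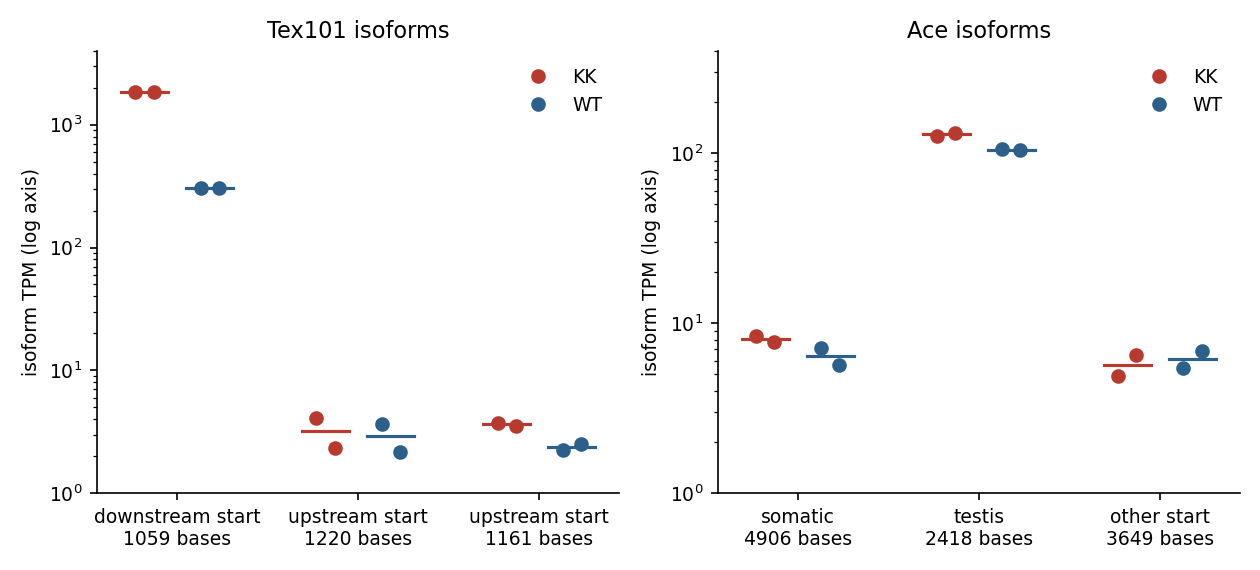
Isoform level in TPM (log axis) of the 3 Tex101 isoforms, left, and of 3 Ace isoforms, right, each marked by its start or form and its length, with KK left of WT, a point for each library and a line at the mean. The Tex101 isoform of the downstream start lies at 1844.55 and 1861.74 TPM in KK and 305.59 and 306.05 TPM in WT, and the testis form is the main one of Ace in all 4 libraries.

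The partners moved little or not at all. Of the 4, Ace and Lypd4 rose, Dpep3 fell and Ly6k did not pass the test, so 3 passed in either direction, where 43.7% of all genes tested and 65.8% of the 2446 genes with a mean of at least 100 CPM did (16.6% higher and 49.2% lower). The values of these 3 did not overlap between the genotypes, as for 70.8% of all genes. The largest partner difference, that of Ace, was 1.22-fold, against 5.98-fold for Tex101.

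Ly6k (chr15:74796874-74799986, minus strand) encodes the LU domain protein that forms a complex with TEX101. Its RNA stood at 365.01 and 356.27 TPM in KK, against 359.08 and 377.13 TPM in WT, so the genotypes overlapped. The log2 fold change was -0.03 ± 0.05 (SE) with a 95% interval of -0.13 to 0.07 and an adjusted p of 0.624 (edgeR), and its sign turned to 0.05 with unscaled library sizes and to 0.01 with upper quartile factors. Its isoform that starts at position 74799533 held 70.93% and 73.78% of the transcripts in KK and 68.44% and 73.93% in WT, which overlap, and the isoform that starts at 74799986 held the rest. The antisense gene Gm17189 overlaps Ly6k and had 22 and 19 counts in KK and 22 and 17 in WT, against more than 1700 for Ly6k in every library.

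Lypd4 (chr7:24864620-24869941, minus strand) encodes another GPI-anchored LU protein of sperm and lies 187944 bases from Tex101. It stood at 755.89 and 755.98 TPM in KK, against 704.17 and 692.46 TPM in WT. Both KK libraries lay above both WT libraries, and the rise was small, with a log2 fold change of 0.12 ± 0.03 (SE, 95% interval 0.05 to 0.19), 1.08-fold, adjusted p 0.00691 (edgeR). Without WT replicate 2 the adjusted p was 0.0906, and with an offset for effective length it was 0.0652. The isoform that starts at position 24869941 held 95.56% and 96.54% of its transcripts in KK and 96.35% and 96.02% in WT.

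Dpep3 (chr8:105973513-105979429, minus strand), the dipeptidase-family partner, fell by the same small size. It had 516.96 and 542.43 TPM in KK, against 570.39 and 577.43 TPM in WT, with no overlap. The log2 fold change was -0.11 ± 0.04 (SE, 95% interval -0.19 to -0.04), 1.08-fold lower, adjusted p 0.0107 (edgeR). The call did not hold with unscaled library sizes (log2 fold change -0.03, adjusted p 0.533), with upper quartile factors (adjusted p 0.0899), with limma on log2(TPM + 1) (adjusted p 0.0825) or without WT replicate 2 (adjusted p 0.0540). It has a single annotated isoform. Gm45752, a lincRNA gene that overlaps it, had 1 and 1 counts in KK and 0 and 0 in WT.

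Ace (chr11:105967945-105989964, plus strand) encodes the peptidase whose testis form has been reported to release GPI-anchored proteins. It had 139.74 and 146.41 TPM in KK, against 118.39 and 116.32 TPM in WT, with no overlap. The log2 fold change was 0.28 ± 0.04 (SE, 95% interval 0.20 to 0.36), 1.22-fold, adjusted p 7.19e-07 (edgeR), and it passed under each of the 14 other settings tried. Gm11651, an antisense gene over Ace, rose as well, with 65 and 57 counts in KK and 25 and 24 in WT (log2 fold change 1.23 ± 0.31 (SE), adjusted p 0.00178, edgeR). Without strand its reads and those of Ace cannot be told apart, but Ace had 5060 and 4828 counts in KK and 3772 and 3910 in WT.

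Both the testis and the somatic transcript of Ace are annotated, and most of the RNA was the testis form. The testis transcript, of 14 exons and 732 codons, starts at position 105975208 in intron 12 of the somatic transcript, 7263 bases downstream of the somatic start. It held 90.50% and 90.28% of the Ace transcripts in KK and 89.37% and 89.20% in WT. Its counts were 4195.78 and 4003.27 in KK and 3068.48 and 3192.05 in WT, and the ratio of mean CPM was 1.24. The somatic transcript, of 25 exons and 1312 codons, had 605.36 and 512.43 counts in KK and 452.96 and 383.04 in WT, and its ratio was 1.255. An isoform with its own start at position 105971323, of 20 exons and 1015 codons, had 258.86 and 312.30 counts in KK and 250.56 and 334.91 in WT, which overlap, and its ratio was 0.929. The ratios of the testis and somatic transcripts were thus alike, and that of the remaining isoform lay below 1. The printed promoter of the testis start holds a TGAGGTCA 52 to 45 bases before the start and a CCAAT on the other strand 25 to 21 bases before it. TGAGGTCA, on either strand, was found in 2.17% of 32851 RefSeq promoters of 300 bases. It also stood once each in those of Lypd4, 143 to 136 bases before the RefSeq start, and Lypd11. That Lypd4 window, positions 24869692 to 24869941, lies inside the main Lypd4 isoform, which starts at position 24869941 in GENCODE. The motif there is therefore not upstream of the main isoform's start. The promoter of the somatic start held neither motif and had 4 copies of CCGCCC, counting overlapping matches. At least 4 copies were found in 5.49% of promoters and at least 1 in 35.7%.

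**Figure D4:**
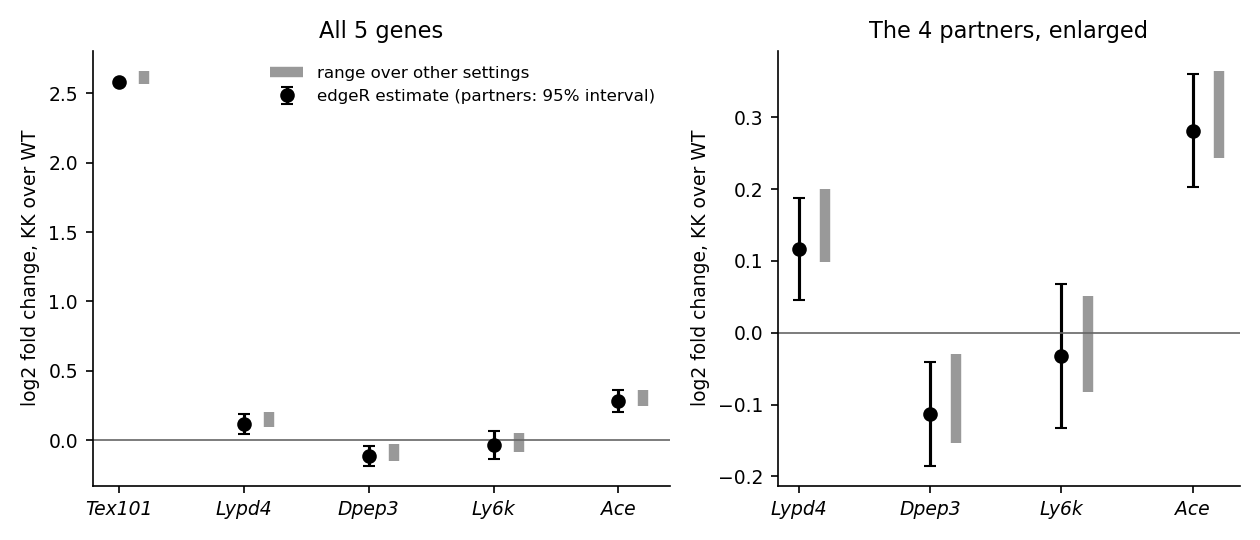
Log2 fold change of KK over WT (points, with the 95% interval as bars for the partners and none for Tex101) and the range over 14 other settings (grey), for the 5 genes on the left and the 4 partners, enlarged, on the right. Tex101 stays between 2.56 and 2.66, Ace stays above 0.24, and Ly6k crosses 0.

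By level, the order of the genes changed with Tex101 alone. In the KK libraries the order in TPM was Tex101, Lypd4, Dpep3, Ly6k and Ace, and in the WT libraries Lypd4, Dpep3, Ly6k, Tex101 and Ace, with no overlap between neighbours in either order. Levels of different genes were not tested against each other. Tex101 stood above its binding partner Ly6k in both KK libraries and below it in both WT libraries.

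Near Tex101, 2 of the 5 genes tested within 100000 bases rose, BC049730 and Gm4763. Xrcc1, a DNA repair gene, fell, and Phldb3 and Cd177 did not pass the test, with log2 fold changes of -0.54 ± 0.43 and -0.17 ± 0.40 (SE). BC049730 is an LU domain gene 32566 bases away. It had 555.48 and 547.84 TPM in KK, against 246.53 and 249.45 TPM in WT, with no overlap, and its log2 fold change was 1.12 ± 0.04 (SE, 2.18-fold, adjusted p 3.41e-19, edgeR). Gm4763, 38347 bases away and also an LU domain gene, had 354.87 and 350.01 TPM in KK and 194.24 and 204.80 TPM in WT (log2 fold change 0.82 ± 0.05 (SE), adjusted p 9.93e-14, edgeR). Over the windows of all 5 genes, 39 neighbours were tested, of which 10 rose and 8 fell, close to the 22.0% of all genes tested that rose and the 21.7% that fell. Beside Ly6k on chromosome 15, the LU domain genes Gml and Gml2 rose, with Gml2 at 33.1 and 31.0 CPM in KK and 11.2 and 12.8 CPM in WT. Ly6d, at 14 and 27 counts in KK and 2 and 4 in WT, also rose there, and Them6 fell. Near Dpep3, Pskh1, Ddx28 and Dpep2 rose, and Edc4 and Nfatc3 fell. Dpep2 had few counts, 20 and 19 in KK and 10 and 3 in WT. Near Lypd4, Gm5893 and Dmrtc2 fell and none rose. Near Ace, Ace3 and Gm11651 rose, and Dcaf7 and Map3k3 fell.

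The promoters of BC049730 and Gm4763 share letters with that of Tex101. The Tex101 promoter holds CCAAT 4 times, first in reverse orientation 144 bases before the start and then 3 times forward, the last ending 61 bases before it. Steps between the boxes were 17, 31 and 31 bases. The BC049730 promoter repeats these steps exactly, and the Gm4763 promoter has steps of 17, 30 and 31 bases. Searching all 32851 promoters on both strands for this run, ATTGG then CCAAT after 12 bases and 2 more CCAAT after 25 or 26 bases each, found it in 4, or 0.0122%. They are Tex101, Gm1096, Lypd10 and Lypd11, all within 55158 bases of chromosome 7. The RNA of Gm1096 was not analysed here. Aligned over 300 bases, its promoter matched that of Lypd11 at 94.7%, that of Lypd10 at 75.7% and that of Tex101 at 66.3%. The Lypd10 and Lypd11 promoters matched each other at 79.3%, so the 4 are not separate finds of the run. The pattern was chosen after the sequences and values were seen, and overlap with other motifs was allowed.

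Genes were also counted by the CCAAT boxes in their promoters, as a description and without matching for abundance. The part of the boxes or of the run in any difference was not tested. At least 4 CCAAT boxes stood in 1.06% of promoters. Of 222 tested genes with at least 4 boxes, those of this locus included, 32 (14.4%) were higher in KK and 70 (31.5%) lower, against 22.4% and 24.0% of the 11280 tested genes with a promoter in the table. In Gm4763 the run stands at the start of 1 of 3 isoforms, the one that starts at position 24726908, whose mean CPM was 1.74 times as high in KK. The isoform that starts downstream at position 24724290, without the run, was 1.77 times as high, and the isoform that starts at position 24724551 was 1.81 times as high. The last of these had 6.74 and 6.92 CPM in KK, but its WT libraries differed, at 2.89 and 4.65 CPM. On the genome it overlaps the isoform that starts at position 24724290, so reads may be shared between their estimates. Within these limits the 3 starts of Gm4763 had like ratios between the genotypes, while those of Tex101 had not. Aligned over 300 bases, the Tex101 promoter matched those of Lypd10 at 66.0% and Lypd11 at 66.7%, against 59.3% for Lypd4 and 59.0% for Dpep3. The Lypd4 window, set by its RefSeq start, lies inside the main GENCODE isoform.

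Other genes of the LU family rose or did not pass the test. Of 22 LU domain genes tested besides the 5, 12 rose, none fell and 10 did not pass, with a median log2 fold change of 0.62, against 0.00 over all genes tested. Among the 12, 2 had fewer than 10 counts in at least 1 WT library. The 12 include Gml2, described above as a neighbour of Ly6k. BC049730, Gm4763 and Gml were also described above as LU domain neighbours that rose, so the LU counts are not separate from those of the neighbours. Of 17 with a mean of at least 1 CPM, 10 rose, where 22.6% of all 14391 genes at that level did. Ly6e rose to 14.04 and 13.11 CPM in KK, against 2.44 and 2.73 CPM in WT (log2 fold change 2.39 ± 0.17 (SE), adjusted p 3.25e-12, edgeR). Ly6e is a widely expressed GPI-anchored cell surface gene. Spaca4, an LU protein of sperm that binds the zona pellucida, and Acrv1, an acrosomal protein, named after their values were seen, rose with log2 fold changes of 0.61 ± 0.09 and 0.62 ± 0.07 (SE). Of 38 other GPI-anchored surface genes tested, 20 rose and 1 fell, with a median of 0.44, where 22.0% of all genes tested rose and 21.7% fell. This list is not separate from the LU list: Cd59a, which rose, stands in both. Of the 20, 4 had fewer than 10 counts in at least 1 WT library. The number that rose was 13 without KK replicate 1 or without WT replicate 1, 12 with DESeq2 or limma and 11 with the effective length offset. The 20 include Spam1, the sperm hyaluronidase (0.83 ± 0.09, SE), also named after its value was seen. The gene that fell was Prnd (-0.67 ± 0.24, SE, adjusted p 0.0260, edgeR), a prion-like protein of the testis. With unscaled library sizes 12 LU genes and 23 other GPI-anchored genes rose, and 0 of either list fell. With DESeq2, limma or the effective length offset 0 of either list fell as well.

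Of 33 tested genes of GPI anchor synthesis and remodelling, 6 rose, 6 fell and 21 did not pass, where 22.0% of all genes tested rose and 21.7% fell, and the median log2 fold change was -0.08. Pgap1, which removes an acyl chain from the anchor after attachment, rose (0.92 ± 0.24, SE), as did Pigx, a subunit of the first mannosyltransferase (0.92 ± 0.28), and Tmem246, which adds N-acetylgalactosamine to the anchor (0.83 ± 0.11). Pigg, Pigv and Mpdu1 fell by 0.24 to 0.44 on the log2 scale. The balance depended on the setting: 10 rose and 1 fell with unscaled library sizes, 5 and 0 with the effective length offset, 4 and 1 with DESeq2, 5 and 2 without KK replicate 1 or without WT replicate 1, and 5 and 3 without WT replicate 2.

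**Figure D5:**
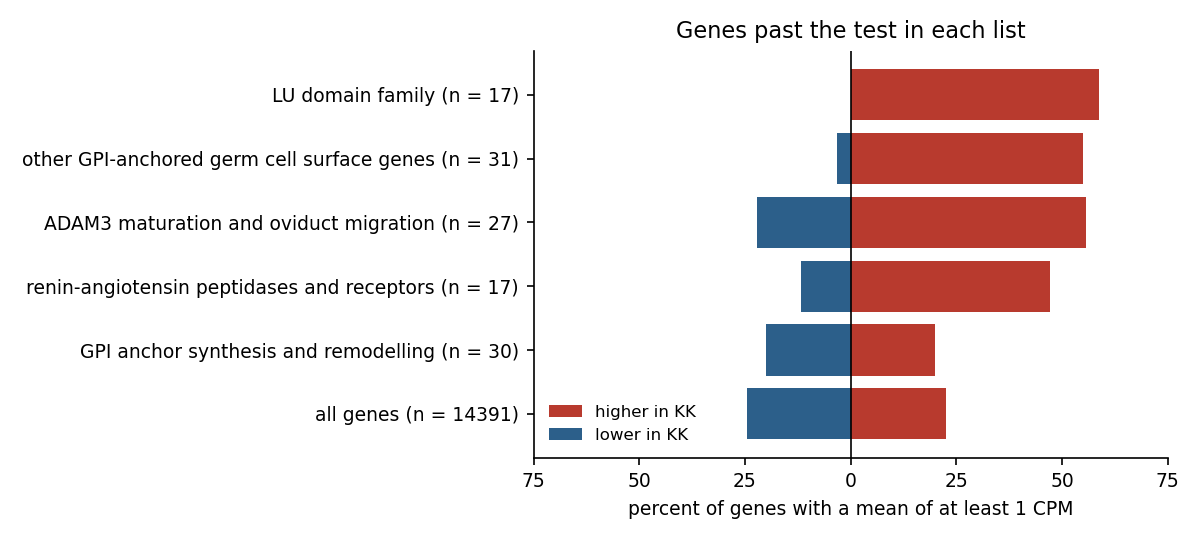
Percent of genes with a mean of at least 1 CPM that were higher (red, right of 0) or lower (blue, left of 0) in KK at an adjusted p of 0.05, for 5 gene lists and for all genes. Of 17 LU domain genes 10 were higher and 0 lower, of 30 anchor synthesis genes 6 were higher and 6 lower, and of all 14391 genes 22.6% were higher and 24.6% lower.

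Genes of sperm surface maturation were divided. Of 28 genes for ADAM3 maturation and passage into the oviduct, 15 rose and 6 fell, where 22.0% of all genes tested rose and 21.7% fell. The median log2 fold change was 0.20, and with unscaled library sizes 17 rose and 2 fell. Tmem95, a sperm membrane protein needed for fusion with the egg, rose with a log2 fold change of 1.54 ± 0.18 (SE), and Adam6a and Adam6b, near-identical copies whose reads can be split between them, rose by 1.18 and 1.29. Adam3 itself, named after its value was seen, had 1038 and 1029 CPM in KK, against 1135 and 1139 CPM in WT, and fell by 0.14 ± 0.03 (SE) on the log2 scale (adjusted p 0.00157, edgeR). Hspa2, a testis chaperone, fell by 0.28 ± 0.04 (SE). Pdilt, a testis protein disulphide isomerase-like chaperone of ADAM3, was also named after its value was seen and rose (1.08 ± 0.07, SE).

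Of 18 tested genes of the renin-angiotensin peptidases and receptors, the pathway of ACE in blood pressure control, 8 rose and 2 fell, where 22.0% of all genes tested rose and 21.7% fell, and the median log2 fold change was 0.40. With limma 3 rose and 0 fell, and with the effective length offset 4 rose and 0 fell. Agt, the precursor of angiotensin, rose to 101.03 and 109.48 CPM in KK, against 26.2 and 26.8 CPM in WT (log2 fold change 1.99 ± 0.07 (SE), adjusted p 4.16e-19, edgeR). Ace3, an Ace-like gene beside Ace, rose with a log2 fold change of 0.94 ± 0.10 (SE). Bdkrb2, a bradykinin receptor, fell by 0.79 ± 0.24 (SE) and Nln, a neurolysin peptidase, by 0.31 ± 0.11 (SE).

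Among 4151 genes with a mean of at least 50 CPM, the pattern most like that of Tex101 over the 4 libraries, by the root mean square distance of log2(CPM over the WT mean), was that of Lcn2, a lipocalin, with a distance of 0.18. Lcn2 stood at 107 and 106 CPM in KK and 14.7 and 15.1 CPM in WT. Next came Agt at 0.42, Insl3 at 0.47, Crip2 at 0.56, Rpl10a at 0.73, Gstm1 at 0.84, and Ncaph2 and Ccnd3 at 0.93. This measure uses the contrast that chose Tex101 and is a description.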

How the data were processed

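RNA-seq libraries of elutriated pachytene spermatocytes, 2 KK and 2 WT, were used. Bowtie was used, with builds mm10 and GRCm38, per the submitters' processing notes. The quantifier is not given in the sources used here. For each of 55364 genes and for transcripts, the deposited tables hold expected counts, TPM and FPKM, and for transcripts also the isoform percent. TPM, as deposited, is scaled to length and to the library total, per the file headers. FPKM values deposited by the authors were not used. Isoform percent was used as deposited by the authors, and isoforms were not tested.

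Gene identifiers were matched to GENCODE M21 (55104 of 55364). Expected counts were rounded to whole numbers and tested with edgeR 4.0.16 in R 4.3.3 (TMM factors, default expression filter, quasi-likelihood fit on genotype, Benjamini-Hochberg adjustment over 16571 genes, threshold 0.05). CPM values are on the TMM scale. Standard errors were derived from the log2 fold change and its F statistic. DESeq2 1.42.0, limma 3.58.1 on log2(TPM + 1), other scalings and filters, and leaving out each library were the alternatives. The fit was tested on simulated counts. Promoters came from RefSeq (GRCm38.p6), and motifs were searched on both strands and chosen with the sequences in view.

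The 5 genes and all lists were chosen with earlier results of these data known. Named genes were the 5, passing neighbours within 100000 bases, Ddx4, up to 3 genes a list and direction with the largest passing change (mean CPM of 1 or more), and the 8 genes most like Tex101, unless stated otherwise.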

Additional observations from a re-analysis of the deposited data

How the results depend on the processing

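Under 14 other settings Ace kept its direction and its call (log2 fold change 0.24 to 0.36). So did 12 named genes in 168 of 168 values: BC049730, Gm4763, Gml, Gml2, Ly6e, Agt, Ace3, Tmem95, Adam6a, Adam6b, Spaca4 and Gm11651. All 12 were clear risers, with an adjusted p of at most 0.00178 (edgeR), so this result was likely beforehand. Named genes nearer the threshold, such as Prnd, were not followed in this way. The log2 fold change of Tex101 moved little, to 2.5635 with an effective length offset, 2.5674 with no expression filter, 2.5759 with limma on log2(TPM + 1), 2.5927 with a mean of at least 1 CPM, 2.6191 with upper quartile factors, 2.6636 with unscaled library sizes, and 2.5685 to 2.5740 without 1 library. That of Ly6k turned to 0.0514 with unscaled library sizes (adjusted p 0.426) and 0.0070 with upper quartile factors (adjusted p 0.930). Dpep3 lost its call at -0.0292 with unscaled library sizes, -0.0737 with upper quartile factors, -0.1160 with limma on log2(TPM + 0.1), -0.1158 on log2(TPM + 1), and at -0.1092 without WT replicate 2 (range without 1 library -0.1530 to -0.0939). Lypd4 lost its call at 0.0982 with the effective length offset and 0.0987 without WT replicate 2 (range without 1 library 0.0987 to 0.1190). The cause was not tested.

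Over all genes, 3648 were higher and 3589 lower. The number higher was 2405 with DESeq2, 2379 with the effective length offset, 2209 with limma on log2(TPM + 0.1) and 2275 on log2(TPM + 1), and the number lower was 2283, 1549 and 1551 with the last 3. Unscaled library sizes moved the median log2 fold change to 0.09 and the share of calls that were higher to 64.2%, against 50.4%. Without 1 library, 2916 to 3095 genes were higher and 3009 to 3457 lower. Of 392 list counts, 326 stayed within 1.5 times and 66 moved further, among them those of GPI anchor synthesis, other GPI-anchored genes, renin-angiotensin genes, and spermatogonial, Leydig, Sertoli, peritubular and immune markers. Replicate numbers did not pair the libraries (correlation of same-numbered deviations -0.08 over 14391 genes), and with a replicate block 3675 genes were higher, 3634 lower, with no call changed among the 5 genes. With 2 libraries a genotype there were 2 residual degrees of freedom.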

Other observations

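Other lists show how the cells compared around Tex101, beside all genes tested, of which 22.0% rose and 21.7% fell. Of 24 tested spermatid genes 13 rose and 9 fell, with sums of 6888 and 6807 CPM in KK and 7800.3 and 7810 CPM in WT. Sun5, which anchors the sperm head to the tail, rose (log2 fold change 1.06 ± 0.10, SE), and Smcp, a mitochondrial capsule protein, fell by 0.71 ± 0.04 (SE) on the log2 scale. Of 24 leptotene and zygotene genes 7 rose and 9 fell, among them Stra8, the meiotic entry factor (1.42 ± 0.22, SE), Rec8, a meiotic cohesin (1.00 ± 0.10, SE), and the synaptonemal complex gene Sycp3, which fell by 0.38 ± 0.04 (SE). With unscaled library sizes 10 rose and 5 fell, and with limma on log2(TPM + 0.1) 4 rose and 4 fell. Of 21 pachytene genes 4 rose and 11 fell, among them Piwil1, which fell by 0.58 ± 0.04 (SE), while with unscaled library sizes 7 rose and 7 fell. Of all genes with a mean of at least 100 CPM, 16.6% rose and 49.2% fell.

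Sertoli markers (20 tested) included 3 that rose and 6 that fell, where 22.0% of all genes tested rose and 21.7% fell. Peritubular and endothelial markers (10 tested) included 6 that rose and 1 that fell, and immune markers (7 tested) included 3 that rose. With DESeq2 the numbers were 1 that rose and 2 that fell for Sertoli markers, 4 and 1 for peritubular and endothelial markers, and 1 and 0 for immune markers. Summed levels were 272 and 274 CPM in KK and 245 and 248 CPM in WT for Sertoli markers, 63.9 and 65.6 CPM in KK and 85.9 and 85.9 CPM in WT for peritubular and endothelial markers, and 8.05 and 9.78 CPM in KK and 5.56 and 5.99 CPM in WT for immune markers. Single genes weighed on these sums: Ptgds, a Sertoli marker, had 73.0 and 70.7 CPM in KK and 26.01 and 27.40 CPM in WT, and Actg2, a smooth muscle actin, had 41.9 and 46.5 CPM in KK and 74.7 and 73.8 CPM in WT. Of 11 epididymal markers 1 was tested and did not pass, and Adam7, Lcn5, Lcn8, Lcn9 and Rnase9 were at 0 in all libraries.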
